A study of Mus musculus with 18 samples.

Results

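Granule-rich immature neutrophils are described here in lungs, spleens and implanted biomaterial scaffolds of mice with and without a mammary tumour. They were picked out cell by cell from Drop-seq counts, a droplet method that tags every captured transcript with the barcode of its cell and a molecular identifier (UMI), so that copies made in amplification count once. A cell was a member when S100a8 plus S100a9 made up at least 5% of its UMIs, Ltf plus Camp plus Ngp at least 1%, and Mpo, Elane, Prtn3 and Ctsg together fewer than 3 UMIs. The rule found 1371 members among 19765 kept cells. Of these, 1367 came from tumour-bearing and 4 from healthy mice.

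Neutrophils make their granules in order as they mature in bone marrow or in sites of extramedullary granulopoiesis such as the spleen. The azurophil proteases (Elane, Prtn3, Ctsg) and myeloperoxidase (Mpo) come first, in dividing promyelocytes. The proteins of the specific granules, lactoferrin (Ltf), cathelicidin (Camp), neutrophilic granule protein (Ngp) and lipocalin 2 (Lcn2), come next, in myelocytes and metamyelocytes, and the gelatinase granules come last. S100a8 and S100a9, the 2 subunits of calprotectin, fill the cytosol from the myelocyte on. 4T1 tumours are known for a strong expansion of neutrophils in blood and spleen.

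The tumour-bearing mice were female BALB/cJ animals that had received 2000000 4T1-tdTomato-luc2 cells, a fluorescent and luciferase-carrying line of the 4T1 mammary carcinoma, in the fourth mammary fat pad of the right side. Healthy mice of the same strain, sex and time received no tumour cells. Libraries were made at day 7, 14 and 21, at an age of 9, 10 and 11 weeks, with 1 library for each tissue, status and day, 18 in all. How many animals went into a library and what the scaffolds were made of is not stated, so p-values measure the spread between libraries, in which day, animals and droplet run cannot be told apart.

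The 18 tables held 26397 barcodes, of which 24536 passed the filters (200 or more genes, under 20% mitochondrial UMIs). A library held 513 to 3415 barcodes, where the labels state about 1000 amplified STAMPs (beads with a cell's RNA), and 292765 to 4530115 UMIs in all. Some barcodes turned up in several libraries of 1 day: 267 of 4962 distinct ones at day 7, 101 of 8154 at day 14 and 1042 of 7246 at day 21. Such a barcode was kept only where its UMI number exceeded that in each other library 5-fold or more, which took out 4771 entries. The healthy spleen of day 21 kept 27 cells and the healthy lung of day 21 kept 235, so both stand apart from the rest, and results are also given without them. With shared barcodes left in place there were 1410 members, 26 of them in healthy libraries.

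Granule-rich cells made up a larger share of the tumour-bearing than of the healthy library in 8 of 9 pairs of the same tissue and day. In spleens, the share of kept cells was 1.67%, 22.4% and 26.1% at day 7, 14 and 21 in tumour-bearing mice, against 0.302%, 0.0881% and 3.70% in healthy mice. Each healthy spleen value rests on 1 cell, the last of them 1 of 27 kept cells. In scaffolds, the share was 0%, 0.899% and 4.35% at day 7, 14 and 21 in tumour-bearing mice and 0% in each of the 3 healthy libraries. In lungs, it was 0.108%, 6.77% and 11.0% in tumour-bearing mice, against 0%, 0.0935% and 0% in healthy mice. In each tissue the tumour-bearing library with the lowest share was that of day 7 and the one with the highest that of day 21.

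The mean over the 9 pairs was 8.14% in tumour-bearing and 0.465% in healthy libraries, a difference of 7.67 percentage points. An exact 2-sided sign-flip permutation test over the pairs gave p = 0.0078125. The smallest it can give is 0.00390625 when all 9 pairs differ. Here it is 0.0078125, since the scaffold pair of day 7 had a difference of 0. The test treats the pairs as independent, although the 3 pairs of a day share that day and may share animals or a droplet run. The remaining pair, the scaffolds of day 7, held no member in either library. A count of 0 allowed a share of up to 0.225% in the tumour-bearing and 0.402% in the healthy scaffold of that day. Without the pairs of the healthy lung and healthy spleen of day 21 the difference was 5.10 points (5.17% against 0.0691%, exact permutation p = 0.03125).

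Within a tissue, 3 libraries against 3 cannot give an exact permutation p below 0.1. The mean share in spleens was 16.7% ± 13.2 in tumour-bearing and 1.36% ± 2.03 in healthy mice (SD, n = 3 each, exact permutation p = 0.2). In scaffolds it was 1.75% ± 2.30 against 0% (n = 3 each, exact permutation p = 0.4). In lungs it was 5.94% ± 5.47 against 0.0312% ± 0.0540 (n = 3 each, exact permutation p = 0.1). Adjusted over the 6 comparisons of 3 against 3 libraries, these p-values were 0.3, 0.48 and 0.2 in the same permutation tests. The large SDs in tumour-bearing mice hold the spread between days. Without day 21 the difference was 11.8 points in spleens and 3.39 points in lungs (n = 2 each, exact permutation p = 0.333, the smallest possible). In scaffolds it was 0.449 points (exact permutation p = 1), so the scaffold difference rests mostly on day 21.

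**Figure D1:**
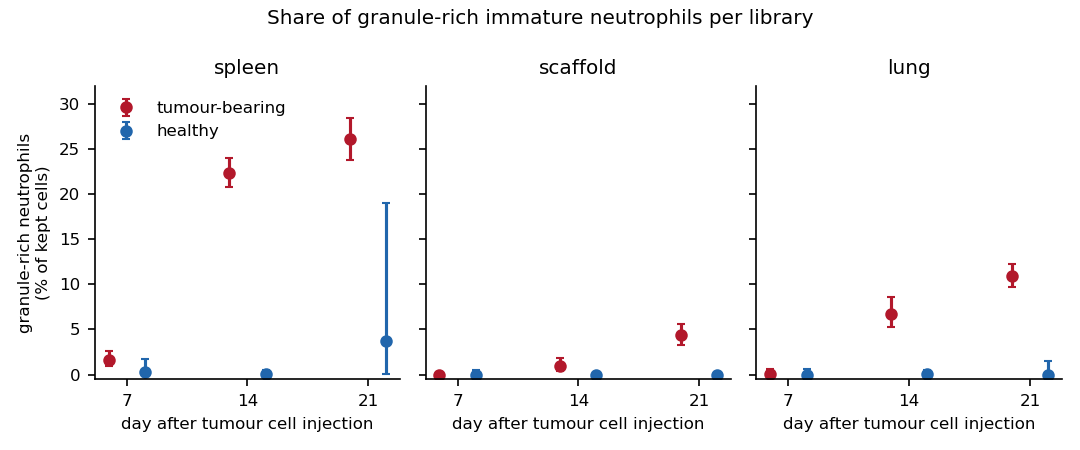
Granule-rich immature neutrophils as a percentage of kept cells (y axis) by day after tumour cell injection (x axis), 1 point per library with its exact binomial 95% interval, in spleen, scaffold and lung. Tumour-bearing spleens of day 14 and 21 lie at 22.4% and 26.1%, and the wide interval in the healthy spleen of day 21 comes from its 27 cells.

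A share of kept cells also moves with every other cell type in the suspension, so members were set against all calprotectin-gated cells, those that passed the S100a8 and S100a9 threshold alone. There were 6395 such cells. In tumour-bearing spleens 13.8%, 45.7% and 39.8% of them were granule-rich at day 7, 14 and 21 (17 of 123, 582 of 1273 and 382 of 959 cells). In tumour-bearing scaffolds the values were 0%, 5.11% and 10.0% (0 of 146, 7 of 137 and 57 of 569 cells). In tumour-bearing lungs they were 0.297%, 11.6% and 13.0% (1 of 337, 63 of 545 and 258 of 1984 cells). The spleen was highest at each of the 3 days, and scaffold and lung were both low at day 7. Healthy libraries held too few such cells for a comparison by status on this denominator. In healthy spleens 1 of 3, 1 of 20 and 1 of 1 were granule-rich (33.3%, 5.00% and 100%), a mean of 46.1% that lies above the 33.1% of tumour-bearing spleens. Healthy scaffolds had 0 of 194, and healthy lungs 1 of 104.

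The mean share was 33.1% ± 17.0 in spleens and 8.29% ± 6.96 in lungs (SD, n = 3 each), with no p below 0.1 possible (exact permutation p = 0.1, adjusted 0.2). Between spleens and scaffolds, 33.1% stood against 5.04% ± 5.01 (n = 3, exact permutation p = 0.1, adjusted 0.2). Scaffolds and lungs did not differ beyond the spread between days, at 5.04% against 8.29% (exact permutation p = 0.5, n = 3 each). The difference was -3.24 points, and the scaffold lay below the lung at each of the 3 days.

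Members had more UMIs than the granule-low cells, calprotectin-gated cells under the granule threshold with the same azurophil limit. The median was 1528 and 1987 UMIs in granule-rich cells of the tumour-bearing spleens of day 14 and 21, against 604.5 and 507.5 in granule-low cells. In the tumour-bearing scaffold of day 21 it was 3039 against 1210.5, and in the lungs of day 14 and 21 1244 and 3066 against 900.0 and 1096.5. To set the libraries at 1 depth, each cell was thinned to 400 UMIs and shallower cells were left out. The granule-rich share of calprotectin-gated cells was then 15.6%, 54.6% and 54.9% in spleens, 0%, 6.50% and 11.4% in scaffolds and 0.316%, 13.3% and 15.1% in lungs. The order of the tissues at each day was as before thinning.

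**Figure D2:**
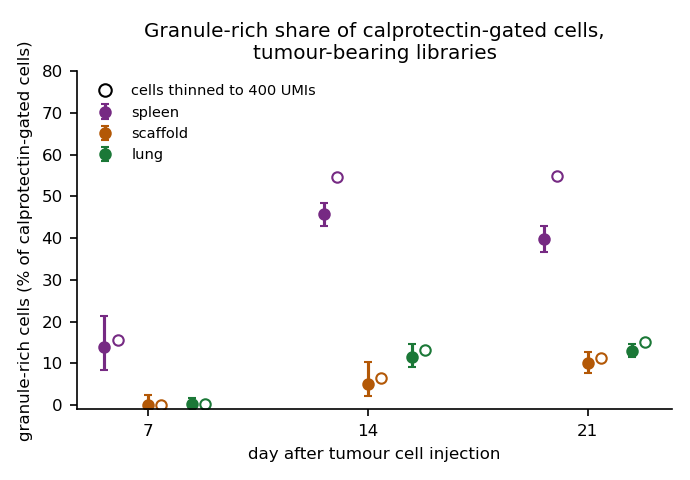
Granule-rich cells as a percentage of calprotectin-gated cells (y axis) by day (x axis) in tumour-bearing spleen, scaffold and lung. Filled points carry exact binomial 95% intervals, open points show the share after thinning each cell to 400 UMIs, and the spleen lies above both other tissues at each day.

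The values that chose the members are given as a description. Calprotectin made up 28.3% of a member's UMIs in the median (lower and upper quartiles 23.0% and 33.3%). The 3 granule genes made up 4.70% in the median, and 88.6% of members carried all 3 of them. The median granule share was 6.63% and 5.43% in the spleens of day 14 and 21, 1.89% in the scaffold of day 21 and 2.80% and 2.16% in the lungs of day 14 and 21. Spleen members thus lay well inside the gate, while those of scaffold and lung lay nearer its edge. No azurophil UMI was found in 75.3% of members, 1 in 18.4% and 2 in 6.35%.

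Just inside the granule threshold, 96 members with a median granule share of 1.11% had a median calprotectin share of 24.5% and a median of 1886 UMIs. Just outside it, 102 cells with a median granule share of 0.851% had a median calprotectin share of 23.2% and 1660 UMIs. At the azurophil limit, 87 members with 2 azurophil UMIs had a median granule share of 6.84%, and 38 cells with 3 such UMIs, outside the gate, had 7.27%. At the calprotectin threshold there were 6 members between 5 and 6% and 2 cells just below 5%. The granule shares beside the granule threshold were set by the choice of cells. Calprotectin share and depth were close there, as was granule share beside the azurophil limit. In all, 345 cells failed by the azurophil limit alone, with medians of 4.63% granule share, 19.2% calprotectin share and 3586 UMIs. Without that limit there were 1716 members. The mean granule-rich share of calprotectin-gated cells was then 43.4% in tumour-bearing spleens and 8.40% in tumour-bearing lungs.

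The level of each gate gene, as counts per 1000000 UMIs (CPM) summed over the members of a library, followed the selection. Ltf, the iron-binding protein of specific granules, stood at 10192 and 5643 CPM in the spleens of day 14 and 21, 4170 in the scaffold of day 21, and 6636 and 3322 in the lungs of day 14 and 21. Camp, the precursor of the antimicrobial cathelicidin, stood at 28243 and 19183 CPM in spleens, 6414 in the scaffold, and 11081 and 5926 in lungs. Ngp, a cystatin-like protein of the same granules, stood at 32768 and 30296 CPM in spleens, 16935 in the scaffold, and 17180 and 17953 in lungs. Camp and Ngp were thus higher in both spleen libraries than in the other 3, while for Ltf the spleen of day 21 lay below the lung of day 14.

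S100a8 stood at 145433 and 145212 CPM in the spleens, 111177 in the scaffold and 117124 and 122100 in the lungs, and S100a9 at 125354 and 169857, 141345, and 139976 and 143341 CPM in the same order. Mpo had 44 and 13 UMIs and Elane 69 and 50 UMIs in the members of the spleens of day 14 and 21, and neither had 1 in those of the scaffold of day 21 or the lungs of day 14 and 21. Prtn3 had 83 and 88 UMIs in the spleens, 2 in the scaffold and 2 and 24 in the lungs. Ctsg had 17 and 25 UMIs in the spleens, 0 in the scaffold and 1 and 0 in the lungs. Among members, the azurophil UMIs that the rule allowed were found mainly in those of the spleens. In granule-low cells of the spleens, under the same limit, Mpo stood at 67.0 and 32.4 CPM, against 40.5 and 15.5 in members. Elane stood at 72.6 and 89.0 against 63.5 and 59.8 CPM, and Ctsg at 36.3 and 52.6 against 15.6 and 29.9 CPM. Prtn3 was higher in members, at 76.4 and 105 against 53.1 and 89.0 CPM in granule-low cells.

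Ltf (chr9:111019292-111042766), Ngp (chr9:110419808-110423012) and Camp (chr9:109847377-109849456, all GRCm38.p6) lie on the same chromosome, within 1195390 bases of each other. The gap between Camp and Ngp is 570351 bases and that between Ngp and Ltf 596279 bases. Because these genes were chosen together and Cebpe, a C/EBP factor known to be needed for specific granules, was measured in the same cells, stretches before their start sites were searched for the C/EBP-type motif TTNNGNAA on both strands. The stretches of Ltf, Ngp and Fcnb, a ficolin that is described further below, are shown from 250 to 66 bases before the RefSeq start, on the gene's strand, with the matches in capitals.
Ltf, chr9:111019042-111019226, plus strand: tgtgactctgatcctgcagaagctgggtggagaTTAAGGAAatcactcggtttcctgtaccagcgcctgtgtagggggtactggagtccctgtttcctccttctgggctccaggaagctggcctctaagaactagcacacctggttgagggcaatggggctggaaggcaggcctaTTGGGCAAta
Ngp, chr9:110419558-110419742, plus strand: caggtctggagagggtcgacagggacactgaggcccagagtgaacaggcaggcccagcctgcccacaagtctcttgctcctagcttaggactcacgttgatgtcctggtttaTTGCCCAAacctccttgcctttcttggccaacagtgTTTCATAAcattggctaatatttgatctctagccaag
Fcnb, chr2:28084944-28085128, minus strand: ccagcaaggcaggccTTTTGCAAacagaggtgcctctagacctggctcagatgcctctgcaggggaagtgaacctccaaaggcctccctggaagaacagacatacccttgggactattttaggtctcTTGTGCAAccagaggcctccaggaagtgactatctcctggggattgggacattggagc
Each of these 3 windows held 2 matches. The same window of Camp held 0, but it overlaps a GENCODE transcript of the gene, unlike the others, and is not shown. Over all 32851 promoter entries of the RefSeq table (GRCm38.p6) 30.7% held at least 1 match, so a match is common and describes the letters only.

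Free RNA was measured in B cells, which should lack these genes (2 or more UMIs of Cd79a, Cd79b and Ms4a1 and under the calprotectin threshold). In the tumour-bearing spleen of day 14, 1 of 346 such cells passed the granule threshold of 1%, and none did in the other libraries. The tumour-bearing scaffolds of day 14 and 21 held 0 and 1 such cells and the tumour-bearing lung of day 21 held 5, so free RNA was hardly measured there. Camp stood at 28243 and 19183 CPM in members of the tumour-bearing spleens of day 14 and 21, against 448 and 364 CPM in B cells of the same libraries. S100a8 had a UMI in 90.2% and 78.6% of those B cells at 3731 and 4050 CPM. Mpo stood at 275 and 91.0 CPM in those B cells, against 40.5 and 15.5 CPM in members. Elane stood at 324 and 91.0 against 63.5 and 59.8 CPM. Prtn3 stood at 261 and 0 against 76.4 and 105 CPM, and Ctsg at 275 and 45.5 against 15.6 and 29.9 CPM. The rule limited these azurophil genes in members but not in B cells. The median depth of these B cells was 581 and 458 UMIs.

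Lcn2 and Cd177, markers of specific granules that the rule did not use, were higher in members than in granule-low cells of the same library in 5 of 5 libraries. Lcn2, which binds bacterial siderophores, stood at 10810 and 7773 CPM in granule-rich against 2348 and 2991 CPM in granule-low cells of the spleens of day 14 and 21. In the scaffold of day 21 it stood at 11662 against 5170 CPM, and in the lungs of day 14 and 21 at 8299 and 12033 against 2666 and 5972 CPM. Cd177, a surface protein stored in specific granules, ranged from 806 to 1125 CPM in granule-rich and from 229 to 398 CPM in granule-low cells, with no overlap. Pglyrp1, a peptidoglycan-binding granule protein, ranged from 2614 to 3413 against 1473 to 1886 CPM.

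Because the gate split the calprotectin-gated cells by 3 of their own genes, differences between granule-rich and granule-low cells are given without a test. Of 4975 genes with 100 or more UMIs, 10.8% were higher and 31.0% lower in granule-rich cells in all 5 libraries. Of the 14 specific-granule genes outside the gate with enough UMIs, 9 were higher in all 5 and 1 was lower, with a median log2 ratio of 1.19, against -0.27 for all genes. Of 6 genes of the NADPH oxidase, which makes superoxide at the phagosome, 5 were higher in all 5 libraries. Its membrane subunit Cybb stood at 2362 and 1621 CPM against 195 and 279 in spleens, 1109 against 135 in the scaffold, and 1382 and 986 against 248 and 122 in lungs. Granule-rich and granule-low cells did not overlap in Cybb.

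Genes of proliferation were higher in granule-rich cells in each library. Of 19 cell-cycle genes with enough UMIs 13 were higher in all 5 libraries and 0 lower, with a median log2 ratio of 1.18. Mki67, a marker of cycling cells, stood at 803 and 716 CPM in granule-rich cells of the spleens of day 14 and 21, 257 in the scaffold, and 255 and 248 in the lungs. In granule-low cells of the same libraries it stood at 103 and 109, 12.6, and 16.2 and 19.8 CPM. Top2a, the topoisomerase that untangles DNA before mitosis, stood at 588 and 765, 66.8, and 145 and 34.9 CPM against 75.4 and 44.5, 0, and 0 and 3.02 CPM. The 12 non-gate genes with the highest mean log2 ratios also held Serpinb1a, an inhibitor of neutrophil proteases (2.89), the mitotic genes Ube2c (2.74), Ccnb2 (2.62) and Nusap1 (2.51), Anxa3 (2.55), Fcnb (2.53), Golim4 (2.48), Cebpe (2.46) and the chitinase-like gene Chi3l3 (2.45).

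Genes of late and activated neutrophils lay on the other side. Of 29 late-neutrophil genes 18 were lower in granule-rich cells in all 5 libraries and 2 higher, with a median log2 ratio of -0.94. Of 14 immediate early genes 12 were lower, and of 13 genes used in the field as markers of suppressive myeloid cells 12 were lower, each list with a median of -1.44. Il1b, the cytokine, stood at 223 and 83.7 CPM in granule-rich against 6626 and 3821 CPM in granule-low cells of the spleens. In the scaffold it stood at 447 against 6235 CPM, and in the lungs at 645 and 403 against 5932 and 4285 CPM. The 12 lowest ratios belonged to Saa3 (-4.82), Il1b (-4.10), Ccrl2 (-3.42), Tspan13 (-3.30), Pla2g7 (-3.09), Ppp1r15a (-2.91), Fgl2 (-2.89), Socs3 (-2.84), Clec4d (-2.82), Btg1 (-2.81), Igfbp6 (-2.80) and Ccl6 (-2.79).

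The gelatinase group was split between the 2 kinds of cell. Of its 12 measured genes 4 were higher and 5 lower in granule-rich cells in all 5 libraries. Retnlg, a resistin-like secreted protein, stood at 3695 and 2829 CPM in granule-rich against 10295 and 17850 in granule-low cells of the spleens, 7405 against 15466 in the scaffold, and 6727 and 8234 against 9340 and 18055 in the lungs. Mmp9, gelatinase B, was higher in granule-rich cells in 3 of 5 libraries, at 168.6 to 1064 CPM against 210 to 695 CPM. Cxcr2, the chemokine receptor of circulating neutrophils, was lower in all 5, at 550 to 1954 against 2178 to 3942 CPM, and Csf3r, the receptor for G-CSF, at 65.8 to 445 against 555 to 1560 CPM.

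Markers of other cell types stood below the specific granule genes outside the gate, which together reached 33616 to 41825 CPM in granule-rich cells. The summed level of 10 B cell genes ranged from 0 to 265.9 CPM in granule-rich and from 10.1 to 1318 CPM in granule-low cells. That of 7 erythroid genes ranged from 0 to 1197 against 1.26 to 3080 CPM, both highest in the spleen of day 14. That of 11 dendritic cell genes ranged from 2.25 to 860 against 28.4 to 2223 CPM. That of 8 monocyte genes ranged from 598 to 1191 against 626 to 1198 CPM, and that of 10 lung epithelial genes from 0 to 18.2 against 2.79 to 25.2 CPM. Their part in the differences was not tested.

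Azurophil-positive cells, with 3 or more UMIs of Mpo, Elane, Prtn3 and Ctsg, gave the comparison on the younger side. There were 668 of them, and the spleens of day 14 and 21 and the lung of day 21 held at least 20 each. This group is mixed, since 205 of 308, 215 of 302 and 12 of 30 of them were calprotectin-gated in those libraries and genes of monocytes were high in it. Of 4753 genes 15.3% were higher and 58.5% lower in granule-rich cells in all 3 libraries, again without a test. Mpo stood at 40.5 and 15.5 CPM in granule-rich against 3443 and 2845 CPM in azurophil-positive cells of the spleens, as the rule required.

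Genes of translation were lower in granule-rich than in azurophil-positive cells. All 16 ribosomal protein genes were lower in 3 of 3 libraries, with a median log2 ratio of -1.65 against -0.55 for all genes, and 21 of 22 cell-cycle genes were lower, with a median of -1.53. Npm1, a nucleolar protein of ribosome assembly, stood at 92.9 and 89.7 CPM in granule-rich against 1300 and 1496 CPM in azurophil-positive cells of the spleens of day 14 and 21, and at 47.3 against 817 CPM in the lung of day 21. Calr, a chaperone of the endoplasmic reticulum, stood at 161, 57.4 and 135 against 2800, 1462.5 and 1087 CPM in the same 3 libraries. The other genes with the lowest ratios were S100a10, Crip1, Lgals1, Mif, Slc25a4, Ccr2, C1qbp, Paics, Mt1 and Gstm1 (mean log2 ratios from -4.08 to -3.34 with Npm1 and Calr included).

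Late genes stood on the higher side here. Of 12 gelatinase and secretory granule genes 10 were higher in granule-rich than in azurophil-positive cells in 3 of 3 libraries, and of 27 late-neutrophil genes 22. Mmp8, the neutrophil collagenase, stood at 973 and 919 CPM in granule-rich against 43.4 and 58.7 CPM in azurophil-positive cells of the spleens, and at 3683 against 831 CPM in the lung of day 21. Mmp9 stood at 608 and 168.6 against 24.2 and 2.94 CPM in the spleens and at 558 against 64.0 CPM in the lung. Stfa3, Retnlg, Stfa2, Prok2, BC117090, Asprv1, Fpr1, Gm5483, BC100530 and Padi4 completed the 12 highest ratios, from 2.70 to 4.05 on the log2 scale with Mmp8 and Mmp9 included. Stfa2, Stfa3, BC100530, BC117090 and Gm5483 belong to the stefin A family of near-identical protease inhibitors, so the counting could have split their reads.

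**Figure D3:**
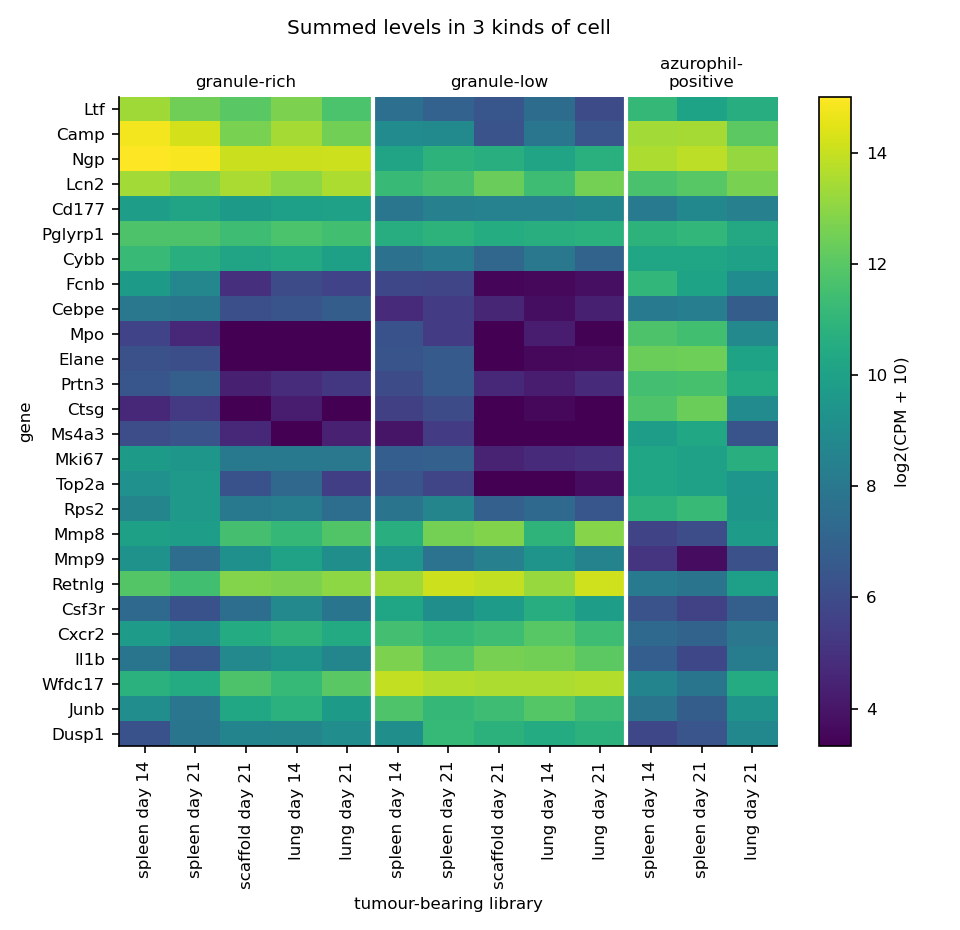
Levels of 26 genes (rows) as log2(CPM + 10), summed over granule-rich, granule-low and azurophil-positive cells of tumour-bearing libraries (columns). Lcn2, Cd177 and Cybb are higher and Il1b, Wfdc17 and Junb lower in granule-rich than in granule-low cells of each library, and Mpo and Elane are high in azurophil-positive cells alone.

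The share of cells with a UMI of Mki67 or Top2a was compared at 500 UMIs per cell, with shallower cells left out. In the spleens of day 14 and 21, 27.3% (interval 23.5 to 31.3%) and 31.8% (27.1 to 36.8%) of granule-rich cells had one, with 50 and 8 cells left out. The value was 4.86% and 3.66% in granule-low cells and 55.8% and 54.4% in azurophil-positive cells of the same libraries. In the scaffold of day 21 it was 8.93% (interval 2.96 to 19.6%) in granule-rich against 0.637% in granule-low cells. In the lungs of day 14 and 21 it was 5.26% and 5.81% against 0.247% and 1.25%. At this fixed depth the granule-rich cells of both spleen libraries carried these transcripts more often than those of the scaffold and both lungs. The intervals did not overlap, but they cover counting error over the cells of single libraries. They do not measure the spread between libraries and are no test between tissues. B cells of the spleens of day 14 and 21, at a median of 581 and 458 UMIs and not thinned, had a UMI of Mki67 in 6.36% and 4.76% and of Top2a in 8.38% and 4.76% of cells. Before thinning, the values in granule-rich cells were 41.2% and 50.3% in spleens, 24.6% in the scaffold and 11.1% and 16.7% in lungs.

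Members also varied with their own granule share. They were put into 3 bins, of 1 to 2%, 2 to 5% and 5% or more of UMIs, and levels were read without a test, since the bins come from the gate genes. The 22 cell-cycle genes together stood at 2132, 3682 and 8388 CPM from the lowest to the highest bin in the spleen of day 14 and at 2760, 8482 and 12077 CPM in that of day 21. In the lung of day 21 they stood at 1794, 3108 and 6223 CPM and in the lung of day 14 at 2778, 4179 and 7269 CPM. The scaffold had 2547, 4619 and 3547 CPM, its highest bin holding 4 cells. The top bin was thus above the bottom bin in all 5 libraries.

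Lcn2 was higher and Mmp8 lower in each successive bin of all 5 libraries. In the lung of day 21 Lcn2 stood at 9919, 12707 and 16886 CPM and Mmp8 at 5382, 3045 and 256.0 CPM from the lowest to the highest bin, over 116, 120 and 22 cells. In the spleen of day 14 Lcn2 stood at 6593, 7898 and 11845 CPM and Mmp8 at 3656, 2309 and 416 CPM, over 66, 135 and 381 cells. Cebpe stood at 0, 79.0 and 304 CPM in the spleen of day 14 and 132, 159 and 264 CPM in that of day 21. In the lung of day 14 it stood at 0, 18.2 and 322 CPM and in that of day 21 at 51.5, 111 and 212 CPM. The scaffold had 11.6, 71.8 and 202 CPM. The median depth of the 3 bins was 1217.5, 983.0 and 1837 UMIs in the spleen of day 14.

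**Figure D4:**
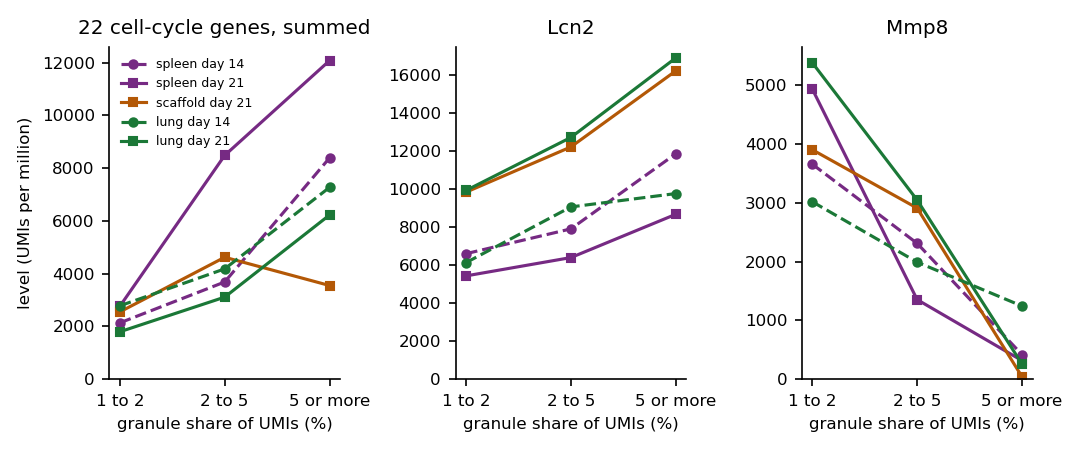
Levels in CPM (y axes) of the summed cell-cycle genes, Lcn2 and Mmp8 in granule-rich cells binned by their granule share of UMIs (x axes), 1 line per tumour-bearing library, squares and solid lines for day 21. Lcn2 is higher and Mmp8 lower in each successive bin of all 5 libraries, and the highest bin of the scaffold holds 4 cells.

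The members of different tissues were compared on counts summed per library. The 5 tumour-bearing libraries with at least 20 members entered 1 edgeR fit with terms for tissue and day: spleens of day 14 (582 cells, 1086776 UMIs) and day 21 (382 cells, 836370 UMIs), the scaffold of day 21 (57 cells, 194744 UMIs), and lungs of day 14 (63 cells, 110012 UMIs) and day 21 (258 cells, 888245 UMIs). The fit tested 6151 genes, left 1 residual degree of freedom and so leaned on the spread shared across genes (biological coefficient of variation 0.264). No healthy library reached 20 members, so tumour-bearing and healthy members were not compared in their genes.

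Between spleen and lung, 419 genes passed (edgeR adjusted p under 0.05), 302 or 4.91% of all genes higher and 117 or 1.90% lower in spleen. Of these, 410 had the same direction at day 14 and day 21, against 3638 of all 6151 genes. The genes were called on these same libraries, so this agreement was largely set by the selection. Cell-cycle genes rose together in spleen members: 19 of 21 tested passed as higher and 0 as lower, with a median log2 difference of 3.05 against 0.05 over all genes. Without the day term 10 of the 21 passed, and by DESeq2 5, all higher. The 22 listed cell-cycle genes together stood at 7154 and 10403 CPM in spleens of day 14 and 21 against 4363 and 2906 CPM in lungs. At day 14, spleen members lay below lung members in the granule bins of 1 to 2% (2132 against 2778 CPM) and 2 to 5% (3682 against 4179 CPM). At 5% or more they lay above (8388 against 7269 CPM). At day 21 they lay above in each bin (2760, 8482 and 12077 against 1794, 3108 and 6223 CPM). The count of 419 rests on the fit with day as a term. It was 76 without that term (65 higher, 11 lower) and 36 by DESeq2. With the gate genes, which the fit included, left out it was 408 (285 higher, 123 lower). Without 1 library, and without the day term, it was 66 (lung of day 14), 0 (lung of day 21), 101 (spleen of day 14) and 10 (spleen of day 21).

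Top2a stood at 588 and 765 CPM in the spleens of day 14 and 21, against 145 and 34.9 CPM in the lungs of the same days. Both spleen values lay above both lung values, a log2 difference of 3.62 ± 0.43 (SE, edgeR adjusted p = 1.21e-13). Cdk1, the kinase that starts mitosis, stood at 33.1 and 86.1 against 0 and 5.63 CPM (4.27 ± 0.77, edgeR adjusted p = 6.02e-06). Ccna2, cyclin A, stood at 38.6 and 64.6 against 9.09 and 3.38 CPM (4.01 ± 0.80, edgeR adjusted p = 6.54e-05), and Tyms, thymidylate synthase, at 12.9 and 34.7 against 0 and 2.25 CPM (4.18 ± 1.10, edgeR adjusted p = 0.00546). The lung values of the last 3 genes rest on 5, 4 and 2 UMIs. Mki67 stood at 803 and 716 against 255 and 248 CPM (1.83 ± 0.36, edgeR adjusted p = 3.58e-05).

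The 8 called genes with the largest positive differences were rare ones, 7 of which had no UMI in lung members. Against a floor of 3 UMIs over both lung libraries, Strbp was at least 9.86-fold higher in spleen (57 UMIs against 0, edgeR adjusted p = 0.00023). Rpp30 was at least 6.75-fold, Trip13 6.57-fold, Ttk 5.54-fold, Apitd1 4.84-fold, Cdc45 4.67-fold and Rfc3 3.98-fold higher. Trip13 and Ttk act at the spindle checkpoint, and Cdc45 and Rfc3 in DNA replication. Ska2, of the kinetochore, had 83 UMIs in spleen and 1 in lung members (log2 difference 5.58 ± 1.05, edgeR adjusted p = 1.63e-05).

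Among specific granule genes outside the gate, 3 of 14 rose and 1 fell in spleen members, with a median log2 difference of 0.13. Without the day term 1 passed as higher and 0 as lower. By DESeq2, and also with library totals in place of TMM factors, 1 passed as higher and 1 as lower. Fcnb, the mouse M-type ficolin, a lectin of early granules, stood at 825 and 420 CPM in the spleens of day 14 and 21 against 54.5 and 41.7 CPM in the lungs. Its difference of 3.79 ± 0.43 (edgeR adjusted p = 5.54e-15) set the spleen well above the lung at both days. Cybb rose too, at 2362 and 1621 against 1382 and 986 CPM (0.98 ± 0.30, edgeR adjusted p = 0.0220). Lyz2, lysozyme, which monocytes and macrophages also make, stood at 13958 and 6030 against 9190 and 2597 CPM (1.15 ± 0.26, edgeR adjusted p = 0.000564). Mmp8 fell, at 973 and 919 against 2154 and 3683 CPM (-1.34 ± 0.30, edgeR adjusted p = 0.000399).

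Lcn2 and Cd177 did not pass between spleen and lung. Lcn2 stood at 10810 and 7773 CPM in spleens against 8299 and 12033 CPM in lungs (log2 difference 0.11 ± 0.25, edgeR adjusted p = 0.871), and the groups overlapped. Cd177 stood at 939 and 1125 against 964 and 1024 CPM (0.29 ± 0.31, edgeR adjusted p = 0.687). With library totals in place of TMM factors the Lcn2 value was -0.13, beside a median of -0.20 over all genes.

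Cebpe rose in spleen members, at 245 and 224 CPM against 72.7 and 97.9 CPM in lungs (log2 difference 1.64 ± 0.41, edgeR adjusted p = 0.00321). Cebpb, the C/EBP factor of emergency granulopoiesis and of activated cells, fell, at 8.28 and 28.7 against 45.4 and 101 CPM (-1.74 ± 0.56, edgeR adjusted p = 0.0328). Fos fell as well, and the other 6 of 9 granulocyte transcription factors tested did not pass. Without the day term 0 of these 9 passed, and by DESeq2 0. Of the azurophil genes outside the gate, Ms4a3, a gene of granulocyte progenitors, rose at 57.0 and 69.3 against 0 and 11.3 CPM (3.16 ± 0.66, edgeR adjusted p = 0.00018). In the same spleens Ms4a3 stood at 81.1 and 0 CPM in B cells and at 5.58 and 32.4 CPM in granule-low cells. The part of free RNA in its rise was not tested. Serpinb1a rose and Srgn, the proteoglycan core of granules, fell. Of the 8 azurophil genes tested, 1 passed without the day term, as higher, and 1 by DESeq2, as lower.

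Summed over all spleen members, later neutrophil genes fell. Of 29 late-neutrophil genes tested 13 fell and 0 rose, with a median log2 difference of -0.86, and of 12 gelatinase and secretory granule genes 4 fell and 0 rose (median -0.87). These calls need the day term: without it 0 genes of either list passed, at medians of -0.94 and -0.79, and by DESeq2 4 and 0 passed. Retnlg stood at 3695 and 2829 CPM in spleens against 6727 and 8234 CPM in lungs (-0.97 ± 0.26, edgeR adjusted p = 0.00721). Mmp9 fell (-1.03), as did Mmp25 (-1.17), a membrane-anchored protease, and Slc11a1 (-1.59), a metal ion transporter of the phagosome. Of the late genes, Cxcl2, a neutrophil chemoattractant, stood at 26.7 and 140 against 173 and 753 CPM (-2.28 ± 0.39, edgeR adjusted p = 2.05e-06). Il1b stood at 223 and 83.7 against 645 and 403 CPM (-1.66 ± 0.37, edgeR adjusted p = 0.000389). Junb (-1.56) and Csf3r (-1.43) fell with them. In the granule bin of 1 to 2%, late-neutrophil genes together were higher in spleens, at 40466 and 83294 against 36680 and 78357 CPM. In the bin of 2 to 5% they were lower, at 31764 and 67103 against 34618 and 69217 CPM. At 5% or more they stood at 16821 and 43509 against 22958 and 55613 CPM. Most spleen members lay in the top bin. The part of granule share in the differences between spleen and lung was not tested.

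Of 12 receptors of neutrophil traffic Cxcr2 (-1.02) and Cd44 (-1.23) fell and 0 rose. Cxcr4, the receptor that holds neutrophils in bone marrow, stood at 31.3 and 20.3 CPM in spleen against 27.3 and 11.3 CPM in lung members, resting on 3 UMIs in the lung of day 14. Of 12 genes of the suppressive myeloid list 4 fell, Il1b, Cd84 (-1.45), Osm (-1.17) and Trem1 (-1.15), and 0 rose. Of 15 immediate early genes 6 fell and Jun rose (1.19). Egr1 stood at 151 and 137 against 573 and 441 CPM (-1.56 ± 0.36, edgeR adjusted p = 0.000779), and Dusp1 (-1.55), Junb, Fos, Btg2 (-1.11) and Ier3 (-1.39) fell too. Without the day term 0 genes of the receptor, suppressive myeloid and immediate early lists passed. By DESeq2 0, 1 and 2 passed, in the same order. Immediate early genes are known to respond within minutes to the handling of tissue, and the part of dissociation was not tested.

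Of 16 ribosomal protein genes 7 rose in spleen members and 0 fell (median log2 difference 0.91). Rps19 stood at 818 and 1279 CPM in spleens against 391 and 500 CPM in lungs (1.46 ± 0.34, edgeR adjusted p = 0.000779). Rps6 (1.72), Rpl3 (1.63) and Rps2 (1.54) rose as well. Without the day term 0 of the ribosomal genes passed, and by DESeq2 1. Rps6 stood at 1055 CPM in the spleen of day 21 and 174 CPM in that of day 14. Its difference was 1.94 without the day term (edgeR adjusted p = 0.178) and -0.04 without both the day term and the spleen of day 21. No gene of the type I interferon response passed, of 4 tested, and of 6 NADPH oxidase genes only Cybb did. Cybb did not pass without the day term, by DESeq2 or with library totals. With library totals in place of TMM factors the median of all genes was -0.20 and 355 genes passed (181 higher, 174 lower). The medians of the cell-cycle (2.78), ribosomal (0.66), late-neutrophil (-1.10), gelatinase (-1.11) and immediate early (-1.33) lists kept their signs. Those of the specific granule (-0.11) and NADPH oxidase (-0.02) lists were below 0 together with the median of all genes, and lay above that median by about as much as with TMM factors.

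The called genes with the largest negative differences were also rare. Fam134a had 0 UMIs in spleen and 18 in lung members, at least 11.6-fold lower against a floor of 3 UMIs over both spleens. Metrnl, a secreted factor, stood at 1.84 and 0 CPM in spleens against 27.3 and 20.3 CPM in lungs. Josd1 (-3.62), Wipi2 (-3.06), Gm7676 (-2.94), Rnf149 (-2.75) and Ip6k1 (-2.73) were further genes of this kind. Fam134a, Wipi2 and Gm7676 each had 22 or fewer UMIs in lung members.

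Genes of other cell types rose in spleen members as well. Cd74, the invariant chain of antigen-presenting cells, stood at 527 and 81.3 CPM in spleens against 164 and 0 CPM in lungs (3.19 ± 0.48, edgeR adjusted p = 1.42e-08), and H2-Eb1 (3.05) and H2-Aa (2.48) of the same list rose with it. Of 5 erythroid genes tested 3 rose, with Hbb-bs at 563 and 120 against 255 and 1.13 CPM (2.88 ± 0.45, edgeR adjusted p = 1.14e-07). Of 8 B cell genes Ighm rose, and of 3 macrophage genes Apoe, whose difference was 1.97 without the day term and -0.08 without both that term and the lung of day 21. Without the day term no gene of the dendritic cell, erythroid, B cell or macrophage list passed. By DESeq2 1 did, of the erythroid list. The erythroid genes together stood at 1197 and 226 CPM in members of the spleens and 600 and 1.13 CPM in those of the lungs. In granule-low cells they stood at 3080 and 20.2 CPM in spleens and at 1776 and 17.2 CPM in lungs. The part of free RNA and of cell pairs in these values was not tested.

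**Figure D5:**
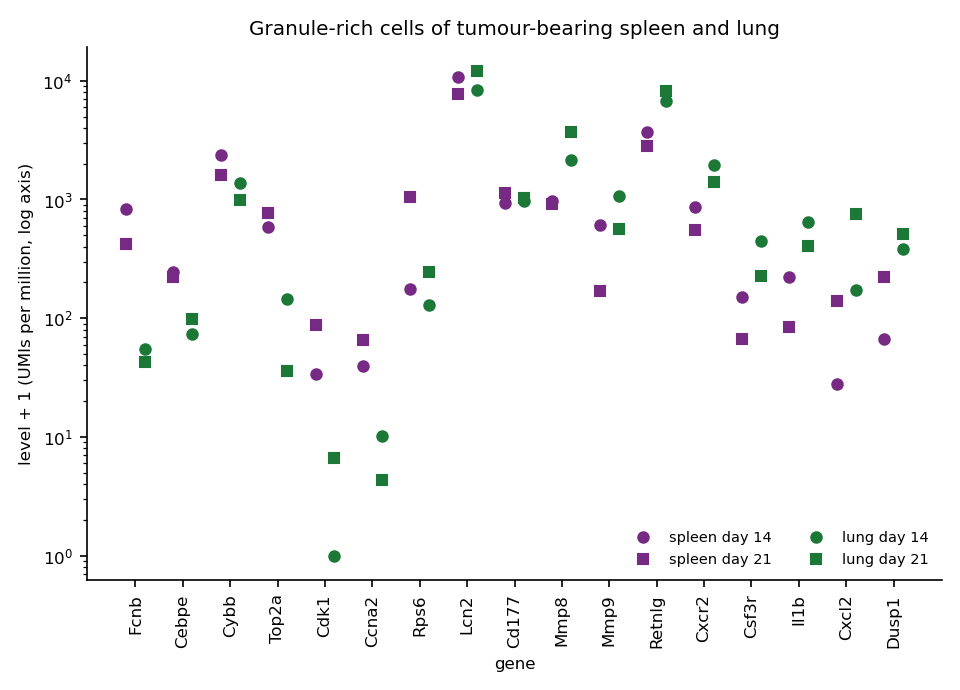
Levels of 17 genes in granule-rich cells of tumour-bearing spleen (purple) and lung (green), in CPM plus 1 on a log axis (y), circles for day 14 and squares for day 21. Fcnb, Top2a and Cdk1 lie higher and Mmp8, Csf3r and Cxcl2 lower in both spleens than in the lung of the same day, while Lcn2 and Cd177 overlap.

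Few genes passed between scaffold and lung members. There were 2 of 6151 in edgeR, 1 higher (0.0163%) and 1 lower (0.0163%), with 119 genes at an unadjusted p under 0.05, and 0 passed by DESeq2 or without the day term. With 57 scaffold cells in 1 library, the fit assumes that the scaffold varies like the other tissues. Apoe, a lipid carrier made by macrophages, stood at 288 CPM in the scaffold of day 21 against 72.7 and 4.50 CPM in the lungs of day 14 and 21 (4.27 ± 0.68, edgeR adjusted p = 2.35e-06). Saa3, an acute-phase protein, stood at 77.0 against 127 and 446 CPM (-2.83 ± 0.60, edgeR adjusted p = 0.00886). The macrophage list together stood at 375 CPM in scaffold members and 841 CPM in granule-low cells of that scaffold, and its part in the Apoe value was not tested.

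Of 21 cell-cycle genes 0 passed between scaffold and lung, with 7 above 0 and a median log2 difference of -0.32 against -0.07 for all genes. Of 14 specific granule genes (median -0.14), 29 late-neutrophil genes (-0.03) and 12 gelatinase genes (0.04) none passed in either direction. Lcn2 stood at 11662 CPM in the scaffold against 8299 and 12033 CPM in the lungs (0.19 ± 0.31, edgeR adjusted p = 1), and Cd177 at 806 against 964 and 1024 CPM (-0.39 ± 0.42, edgeR adjusted p = 1). The calls in this contrast are too few to show that the members of scaffold and lung are alike.

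Between day 21 and day 14, with tissue in the fit, 78 genes passed in members, 35 or 0.569% of all genes higher and 43 or 0.699% lower at day 21. Of these, 74 had the same direction in spleen and lung, against 3238 of all 6151 genes, which the calling on the same libraries largely set. Day 14 and day 21 are 1 library per tissue each, so time and library cannot be told apart. The count was 23 by DESeq2. Adding the spleen of day 7 with its 17 members turns the day term into a slope over 3 days, and 10 genes passed for it, all higher, so that none of the 43 lower genes did. With library totals the count was 75 (21 higher, 54 lower), and with the gate genes left out 79 (34 higher, 45 lower).

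Stefin A genes were among those that rose, and 3 of them had the smallest p-values of the genes higher at day 21. Stfa2l1 stood at 7621 and 10057 CPM in the spleen and lung of day 21, against 1181 and 1827 CPM in those of day 14 (log2 difference 2.71 ± 0.28, edgeR adjusted p = 4.98e-19). Gm5483 stood at 10140 and 8620 against 1503 and 1745 CPM (2.66 ± 0.28, edgeR adjusted p = 1.81e-18) and Stfa2 at 6161 and 13985 against 1454 and 2382 CPM (2.45 ± 0.27, edgeR adjusted p = 1.85e-16). All day 21 values lay above all day 14 values in these 3 genes. Stfa3, BC100530 and BC117090 rose as well, and reads could again be split between these near-identical genes. The scaffold of day 21 held 8057 CPM of Stfa2l1 and 9736 CPM of Stfa2, within the range of the other day 21 libraries, and 5813 CPM of Gm5483, below both.

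Of 29 late-neutrophil genes 8 rose at day 21 and Prok2 fell, with a median log2 difference of 0.35 against 0.09 for all genes. The 8 were 4 stefin A genes (Stfa2, Stfa2l1, Stfa3, BC100530), Asprv1, Cxcl2, Il1r2, a decoy receptor for interleukin 1, and Trem1. Cxcl2 stood at 140 and 753 CPM in the spleen and lung of day 21 against 26.7 and 173 CPM at day 14 (2.39 ± 0.40, edgeR adjusted p = 5.81e-07). Saa3 stood at 255 and 446 against 23.9 and 127 CPM (2.83 ± 0.43, edgeR adjusted p = 2.78e-08). Saa3 was far higher in granule-low cells of day 21, at 17251 and 13776 CPM in the spleen and lung. Its level in those of day 14 was 603 and 621 CPM.

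Among specific granule genes Ifitm6 rose, at 9106 and 10186 CPM in the spleen and lung of day 21 against 4650 and 5790 CPM at day 14 (1.02 ± 0.25, edgeR adjusted p = 0.00618). Lyz2 fell, at 6030 and 2597 against 13958 and 9190 CPM (-1.39 ± 0.26, edgeR adjusted p = 1.88e-05). Mmp9 fell too, at 169 and 558 against 608 and 1064 CPM (-1.26 ± 0.34, edgeR adjusted p = 0.0190). Lcn2 (0.16 ± 0.25) and Cd177 (0.31 ± 0.31) did not pass, with edgeR adjusted p = 0.998 and 0.986. Of 21 cell-cycle genes none passed in either direction, although 19 lay above 0 (median 0.71).

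Other genes with large positive differences were Bcl2l15, at 37.1 and 88.9 against 0.920 and 0 CPM (5.54 ± 0.93, edgeR adjusted p = 9.93e-07), and Prnp, the prion protein gene, at 53.8 and 117 against 3.68 and 0 CPM (4.34 ± 0.72, edgeR adjusted p = 5.81e-07). Fbp1, a gluconeogenic enzyme (2.92), Fkbp5, a target of glucocorticoids (2.79), and Rpl29 (4.31) rose as well. For Rpl29 the slope over 3 days, with the spleen of day 7 in the fit, was -0.06 per week. Rps6 (2.10), Nfkbia (1.37) and Trem1 (1.45) rose in their lists.

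Most of the genes with the largest negative differences belong to lymphocytes and to interferon-responsive or unnamed genes. Igj and Iglc2, of antibody-forming cells, Ms4a1 of B cells and Ccl5 of T and NK cells had 0, 2, 1 and 0 UMIs in the spleen and lung of day 21, against 26, 62, 37 and 16 UMIs in those of day 14. The scaffold of day 21, which is not part of these sums, held Ccl5 at 51.4 CPM. Ifi27l2a stood at 2.39 and 6.75 against 66.3 and 136 CPM (-4.33 ± 0.65, edgeR adjusted p = 1.63e-08), and Ifi203 fell with it (-4.38). Gm10282 stood at 5.98 and 1.13 against 261 and 291 CPM (-6.08 ± 0.57, edgeR adjusted p = 3.27e-22). Hspa1a, a heat shock gene of the immediate early list, had 0 UMIs at day 21 and 45 at day 14, at least 21.6-fold lower against a floor of 3 UMIs over both libraries. Ccl5 was at least 7.69-fold and Igj at least 12.5-fold lower.

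Some markers of other cell types fell at day 21, and none of these calls held in the slope over 3 days. Of 5 erythroid genes 4 fell, with Hbb-bs at 120 and 1.13 CPM in the spleen and lung of day 21 against 563 and 255 CPM at day 14 (-3.33 ± 0.44, edgeR adjusted p = 2.33e-11). Of 4 dendritic cell genes 3 fell, among them Cd74 (-3.50). Of 8 B cell genes Ighm (-2.55) and Ms4a1 (-5.03) fell, and of 6 monocyte genes Ly6c2 (-1.35) and Ccr2 (-2.60). The summed erythroid level in granule-low cells of the same libraries was 20.2 and 17.2 CPM at day 21 and 3080 and 1776 CPM at day 14. Its part in the other differences between days was not tested.

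Libraries with fewer than 20 members gave single values. The 17 members of the tumour-bearing spleen of day 7 held 69784 UMIs, with 75 of Mki67, 37 of Top2a, 1062 of Lcn2 and 2 of Cd79a. The 7 members of the tumour-bearing scaffold of day 14 held 15405 UMIs, with 1 of Mki67, 0 of Top2a and 120 of Lcn2. The 1 member of the tumour-bearing lung of day 7 held 2821 UMIs, with 28 of Lcn2 and 0 of Mki67. The members of healthy mice, 1 in the lung of day 14 and 1 in each spleen, held 806 to 5083 UMIs and 2 to 58 UMIs of Lcn2. In the healthy spleen of day 21 the single member had 0 UMIs of Ltf, 15 of Camp, 10 of Ngp and 1 of Top2a.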

How the data were processed

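For each of the 18 libraries the authors deposited a table of raw UMI counts, with genes in rows and cells in columns. The submitters' processing notes name Seurat 2 and the genome build mm10, with no aligner, annotation or earlier cell filter (not given in the sources used here). Barcodes with at least 200 genes and under 20% mitochondrial UMIs were used, barcodes found in several libraries of a day were resolved as stated, and no doublet removal was applied. Members, gene lists and tests were chosen with earlier results of these data known. Counts were summed over the members of each library with at least 20 of them and fitted with edgeR 4.0.16 (quasi-likelihood test, TMM factors, its default filter, Benjamini-Hochberg adjustment, R 4.3.3), with tissue and day as terms. The fit was also run on counts simulated from means and a spread fitted to these same libraries. Such counts cannot check how the calls depend on the day term. Shares were compared with exact permutation tests (scipy 1.17.1), and intervals are Clopper-Pearson at 95% and cover counting error only. Ratios between kinds of cells are means over libraries of log2 CPM with a pseudocount of 10 CPM. Lists left out gate genes, but the fit and its counts of genes that passed included them. Named were the gate genes and markers, the 8 largest called differences per direction with 1 sign at every day or tissue, up to 4 called genes per list, and the 12 extreme ratios. Of the genes so chosen, 1 is not reported here. Some further list genes and Mki67 were named after their values were seen. Promoter sequences are from RefSeq (GRCm38.p6).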

Additional observations from a re-analysis of the deposited data

How the results depend on the processing

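The difference in share between tumour-bearing and healthy libraries kept its direction under all alternatives run (5.10 to 11.3 points). It was 5.23 to 11.3 points when 1 day was left out, with an exact permutation p of 0.0625 without day 14 (6.53 points) or without day 21 (5.23 points), the smallest that 5 non-zero pairs allow, and 0.03125 without day 7. Without the pairing of libraries the permutation p was 0.00979. With the day as a replicate block, the exact permutation p of each tissue comparison of shares was 0.25 or 0.5, and 3 pairs cannot go lower than 0.25. Day numbers name a shared time point, and whether libraries of a day share animals is not stated. Between spleen and lung 262 genes passed with a granule share of 2% or more, 36 by DESeq2 (25 higher, 11 lower) and 286 with no filter on low counts (254 higher, 32 lower). With no replicate block 76 passed, and 0 to 101 with 1 library left out of that fit (66 without the lung of day 14, 0 without that of day 21, 101 without the spleen of day 14, 10 without that of day 21), an alternative chosen after seeing the data, as was the one without the pairs of healthy lung and healthy spleen of day 21. Between scaffold and lung 0 genes passed by DESeq2 (16 at an unadjusted p under 0.05), 0 with no replicate block, 1 with a granule share of 2% or more and 0 with 1 library left out. Between day 21 and day 14, 23 passed by DESeq2 (12 higher, 11 lower) and 10 (all higher) for the slope over 3 days that adding the spleen of day 7 gives. Among named genes, the sign reversed for Rps6 (-0.036 without the spleen of day 21) and Apoe (-0.081 without the lung of day 21) between spleen and lung, both also without the day term. For the day it was negative for Rpl29 (-0.058) and Lcn2 (-0.0015) per week in that slope, which differs from the contrast of day 21 with day 14 in its libraries and in what it estimates. Lcn2, which passed in no comparison, reversed between spleen and lung with library totals (-0.13), with a granule share of 2% or more (-0.0048), without the lung of day 14 (-0.21) and without the spleen of day 14 (-0.10), and between scaffold and lung without the lung of day 14 (-0.022). The causes were not tested. Fits with day as a term leave no residual degree of freedom without a library and were not run, nor was a fit of tumour-bearing against healthy members. Few lung members of day 14 (63 cells, 110012 UMIs) and scaffold members (57 cells, 194744 UMIs) limit what could be detected for rare genes.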
